A study of Mus musculus with 4 samples.

Results

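Natural killer (NK) cells were taken from 4 single-cell RNA-seq libraries of mouse mammary tumours by their transcripts, and 774 of 28200 kept cells met the rule. A cell was kept with at least 200 genes, at least 500 unique molecular identifiers (UMIs, the counts of captured transcripts) and at most 10% mitochondrial UMIs. It was called an NK cell with at least 2 UMIs in sum of Ncr1, Klrb1c and Klre1, and with no UMI of Cd3d, Cd3e, Cd79a or Csf1r. Those 3 genes code for receptors of the NK cell surface (NKp46, NK1.1 and NKG2I), and the excluded genes mark T cells, B cells and macrophages. The cells were thus chosen by the measured levels of those 7 genes, which are described here without a test. Each of the 4 groups is 1 library, so every difference below is between 2 libraries, its interval covers counting error only, and no p-value is given.

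NK cells are innate lymphocytes that kill stressed, infected or transformed cells without prior priming. They do so by releasing granules that hold perforin, which opens the target's membrane, and granzymes, the proteases that enter through it, under the balance of activating and inhibitory receptors. They also release interferon-gamma and the chemokines CCL3, CCL4, CCL5 and XCL1, which draw T cells, monocytes and dendritic cells. Fully mature circulating NK cells carry the transcription factor Klf2 and the homing receptor S1pr5, whereas tissue-resident innate lymphocytes of group 1 carry Itga1 (CD49a).

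T11-Apobec tumours were grown in Balbc females and KPB25Luv tumours in FVB/NJ females, in both cases from tumour cells placed in a mammary gland. In each model a treated library came from a tumour under 2 checkpoint antibodies, aPD1 (10 mg/kg, against PD1) and aCTLA4 (100 µg, against CTLA4), given biweekly once the tumour measured 5 mm across and collected after 7 days. An untreated library stood beside it in each model. How many animals entered a library is not given in the sources used here, and tumour model and mouse strain cannot be told apart.

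The NK cells numbered 304 in the treated and 360 in the untreated T11-Apobec library, of 6131 and 10321 kept cells. They numbered 64 in the treated and 46 in the untreated KPB25Luv library, of 5273 and 6475. In the same order they held 734963, 1090477, 169907 and 147238 UMIs in sum, and the median NK cell 1912, 2302.5, 2216.5 and 2693.5 UMIs. Between 34 and 125 cell barcodes recurred between any 2 libraries, and 1 of them was an NK cell in both T11-Apobec libraries.

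All 12 NK markers were found in the NK cells of all 4 libraries, at a summed level of 27839 and 14758 counts per 1000000 UMIs (CPM) in treated and untreated T11-Apobec and 20070 and 10609 CPM in KPB25Luv. Over all kept cells the same sum was between 514 and 2199 CPM. The 12 markers include the 3 genes of the rule, so part of this difference was set by the choice of cells. T cell markers summed to 1114 and 531 CPM in treated and untreated T11-Apobec NK cells and to 2054 and 1684 CPM in KPB25Luv. In T cells, by the rule given below, they summed to 6903, 5150, 8608 and 1894 CPM in the same order. Over all kept cells the sums were 2727, 162, 6912 and 715 CPM, so those of untreated NK cells were the larger. Of these 12 markers 9, 7, 8 and 7 had a UMI in NK cells, and Cd5 and Cd6 were at 0 in 3 of the 4 libraries each. Cd3d and Cd3e are among the 12 and were at 0 by the rule, as was Csf1r among the macrophage markers. In T11-Apobec, macrophage markers summed to 446 CPM in treated and 1316 CPM in untreated NK cells, and fibroblast markers to 57.1 and 616 CPM.

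The untreated KPB25Luv library stands apart from the others in transcripts of other cell types, and this touches every result in that model. Of its 46 NK cells, 39 held a UMI of Krt8, Krt18, S100a8 or S100a9, keratins of epithelial cells and calcium-binding proteins of neutrophils. In that library 87.4% of T cells and 92.2% of all kept cells did so too, whereas 0 of the 64 treated KPB25Luv NK cells did, which at a floor of 3 counts allows up to 4.69% of cells with such a UMI. In T11-Apobec the shares were 3.29% and 5.00% of treated and untreated NK cells. Many values in KPB25Luv are therefore also given from the 7 untreated NK cells without such a UMI, called marker-free below, which hold 13420 UMIs, and the part of these transcripts in the other results was not tested.

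The genes whose upstream sequence is shown here are the granzymes and perforin that lead the comparisons below, and Ncr1, which chose the cells. For each, the 250 bases before the transcript start are printed from RefSeq (GRCm38.p6), 5′ to 3′ on the gene's strand, with the Runx motif TGTGGTT or its reverse complement in capitals. Runx proteins are transcription factors active in NK and cytotoxic T cells. The motif was chosen for capitals after the matches of 3 motifs had been counted. Gzma, granzyme A, lies on the minus strand with its window at chr13:113100982-113101231. Gzmb (chr14:56262335-56262584) and Gzmc (chr14:56234658-56234907), granzymes B and C, are minus-strand neighbours in 1 gene cluster. Prf1, perforin, is at chr10:61297586-61297835 and Ncr1 at chr7:4337465-4337714, both on the plus strand.
Gzma: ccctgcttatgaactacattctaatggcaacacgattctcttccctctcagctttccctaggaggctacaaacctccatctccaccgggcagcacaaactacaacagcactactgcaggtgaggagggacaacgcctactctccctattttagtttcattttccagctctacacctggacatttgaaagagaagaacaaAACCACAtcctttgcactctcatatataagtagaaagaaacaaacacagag
Gzmb: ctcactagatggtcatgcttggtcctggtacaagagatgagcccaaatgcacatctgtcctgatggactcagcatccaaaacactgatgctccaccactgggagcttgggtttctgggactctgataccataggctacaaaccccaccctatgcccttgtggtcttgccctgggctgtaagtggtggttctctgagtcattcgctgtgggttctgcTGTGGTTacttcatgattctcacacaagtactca
Gzmc: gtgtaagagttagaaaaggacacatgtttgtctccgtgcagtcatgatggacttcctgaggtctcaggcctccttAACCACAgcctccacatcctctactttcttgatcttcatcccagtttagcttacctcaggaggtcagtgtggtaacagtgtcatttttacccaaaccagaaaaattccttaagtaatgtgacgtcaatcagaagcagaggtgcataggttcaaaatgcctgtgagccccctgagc
Ncr1: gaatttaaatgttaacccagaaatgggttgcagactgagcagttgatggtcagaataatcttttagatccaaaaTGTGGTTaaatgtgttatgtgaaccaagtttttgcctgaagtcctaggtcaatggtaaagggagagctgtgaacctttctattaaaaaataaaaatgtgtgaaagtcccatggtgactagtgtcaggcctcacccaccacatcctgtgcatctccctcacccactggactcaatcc
Prf1: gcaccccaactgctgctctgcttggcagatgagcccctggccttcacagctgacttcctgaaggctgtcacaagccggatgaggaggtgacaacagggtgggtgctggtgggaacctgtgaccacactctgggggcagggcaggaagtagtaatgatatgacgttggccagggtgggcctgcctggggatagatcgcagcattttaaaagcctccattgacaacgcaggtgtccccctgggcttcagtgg

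The Runx motif began 51 bases before the start of Gzma, 34 before Gzmb, 175 before Gzmc and 176 before Ncr1, and was not found in the Prf1 window. It was present, on either strand, before 8 of the 19 cytotoxic granule genes with a RefSeq window, 42.1%, against 4.40% of all 32851 windows of that length. Of those 8, 6 are Gzmb to Gzmg, related genes in 1 cluster on chromosome 14. In Gzmc to Gzmg the motif began between 175 and 196 bases before the start, in shared sequence, and these are no independent matches. That of Gzmb, 34 bases before the start, is in the other orientation. The T-box motif GGTGTGA was before 4 of the 19 and the STAT motif TTCNNNGAA before 3, against 3.33% and 7.02% of all windows. A list gene was counted if any of its windows matched, whereas the shares of all windows count each window by itself. A match is a run of letters and no measured binding.

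The rule takes cells at a threshold, and cells on both sides of it were compared once as a description. Just inside, with exactly 2 UMIs, were 31 and 67 cells in treated and untreated T11-Apobec and 6 and 11 in KPB25Luv. Just outside, with exactly 1, were 29, 71, 11 and 38 cells in the same order. Gzma stood at 14855 CPM in the inside cells and 820 CPM in the outside cells of treated T11-Apobec, and at 4781 and 1125 CPM in the untreated library. In untreated KPB25Luv the outside cells had a median of 17215.5 UMIs, against 1843 inside.

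Many cells with NK receptor transcripts were left out because they also carried Cd3d or Cd3e. These were 411 of the 723 cells with at least 2 UMIs of the 3 receptors in treated T11-Apobec, and 42 of 421 in the untreated library. In KPB25Luv they were 114 of 178 and 44 of 92. Their median Cd3 count was 10 UMIs in treated T11-Apobec and 7 in treated KPB25Luv, and 35 and 16 of them rested on a single Cd3 UMI. Cd8a, a coreceptor of cytotoxic T cells, was at 621 CPM in the excluded cells of treated T11-Apobec and at 130 CPM in those of the untreated library.

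NK cells were a larger share of all cells in the treated library of each model, but the size and direction of that difference rested on the denominator. They made up 4.96% (exact 95% interval 4.43 to 5.53%) of treated and 3.49% (3.14 to 3.86%) of untreated T11-Apobec cells. In KPB25Luv they made up 1.21% (0.936 to 1.55%) and 0.710% (0.521 to 0.946%). The 2 intervals did not overlap in T11-Apobec and did so by a small margin in KPB25Luv. Among cells with a UMI of Ptprc, the leukocyte antigen CD45, the T11-Apobec direction turned: NK cells were 6.40% (5.66 to 7.19%) in the treated library and 12.4% (11.02 to 13.8%) in the untreated one. The KPB25Luv shares of such cells were 1.28% and 1.22%, with intervals that overlapped.

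The libraries differed in depth, with medians of 4143 and 7815 UMIs over all kept cells of treated and untreated T11-Apobec and 3866 and 9704 in KPB25Luv. With each cell thinned to 1000 UMIs and shallower cells left out, the NK share was 3.79% against 2.25% in T11-Apobec and 0.969% against 0.576% in KPB25Luv. Set against T cells (at least 2 UMIs of Cd3d and Cd3e, and none of the NK, B cell or macrophage genes), there were 13.6 NK cells per 100 T cells in treated and 135 in untreated T11-Apobec. In KPB25Luv there were 1.82 and 2.84. T11-Apobec held the larger share of NK cells at both states and over all 3 denominators plotted by library.

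**Figure D1:**
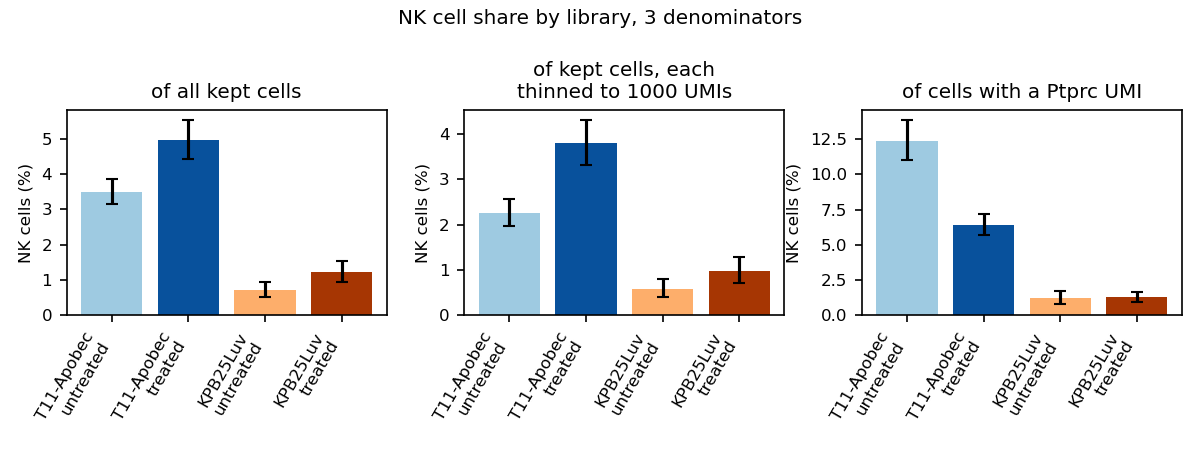
Share of NK cells in each library, in percent, over all kept cells, over cells thinned to 1000 UMIs, and over cells with a Ptprc UMI. Bars are shares and lines exact 95% binomial intervals. The treated T11-Apobec bar is above the untreated one in the left and middle panels (4.96% against 3.49% and 3.79% against 2.25%) and below it in the right one (6.40% against 12.4%).

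The 3 genes of the rule themselves were uneven. Ncr1 was found in between 91.9% and 95.7% of NK cells of every library. Klrb1c was found in 61.8% and 59.2% of treated and untreated T11-Apobec NK cells and in 51.6% and 39.1% of KPB25Luv ones, and Klre1 in 68.8%, 68.1%, 56.2% and 45.7%. The level of Ncr1 was 1657 and 863 CPM in treated and untreated T11-Apobec and 1801 and 1073 CPM in KPB25Luv.

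The first comparison asks how NK cells differed under checkpoint antibodies, and in both models Gzma, Prf1 and Gzmb, of the killing machinery, stood higher in the treated library. Gzma was at 13518 CPM in treated and 5583 CPM in untreated T11-Apobec NK cells and at 5944 and 2119 CPM in KPB25Luv, log2 ratios of 1.28 (1.23 to 1.32) and 1.49 (1.30 to 1.68). Prf1 was at 903 and 206 CPM in T11-Apobec and 883 and 339.6 CPM in KPB25Luv, ratios of 2.13 (1.91 to 2.36) and 1.37 (0.91 to 1.87). Within each model the treated library was the higher one for both genes. Between models, Gzma of untreated T11-Apobec (5583 CPM) was near that of treated KPB25Luv (5944 CPM), and the 2 treated levels of Prf1 were nearly level. Gzmb, which triggers apoptosis by cleaving caspases, was at 1693 and 635 CPM in T11-Apobec and 659 and 238 CPM in KPB25Luv, ratios of 1.41 (1.28 to 1.55) and 1.46 (0.91 to 2.06).

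Both transcripts were far lower in other cells of the same library. In treated T11-Apobec, Gzma was at 85.4 CPM in T cells, 15.1 CPM in B cells and 1.84 CPM in cells with Csf1r, and Prf1 at 66.0, 3.27 and 0.612 CPM. Prf1 in T cells stood at 66.0 CPM in treated and 13.9 CPM in untreated T11-Apobec tumours, a ratio of 2.19 beside the 2.13 of NK cells. After thinning to 1000 UMIs, Gzma was found in 86.4% (81.9 to 90.2%) of treated and 68.7% (63.5 to 73.5%) of untreated T11-Apobec NK cells, against 87.8% and 74.4% unthinned. Prf1 was found in 52.6% (46.7 to 58.5%) and 21.1% (16.9 to 25.7%), against 70.1% and 38.1% unthinned. Thinning left out 17 treated and 9 untreated NK cells with under 1000 UMIs. More of the treated cells held each transcript at equal depth. Among 657 B cells of treated T11-Apobec, which should lack it and had a median of 1634 UMIs, Gzma was found in 2.44% unthinned and 1.23% thinned, and Prf1 in 0.609% and 0.308%.

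The cytotoxic granule list holds 20 genes, and 16 of them had the 50 UMIs needed for a comparison in T11-Apobec. Of these, 10 were past 1.5-fold higher and 1 lower, with a median log2 ratio of 1.06, beside 15.3% of all 4150 compared genes higher, 13.4% lower and a median of 0.02. In KPB25Luv 11 were compared, with 5 higher, 1 lower and a median of 0.56, beside 17.7% of 898 compared genes higher, 15.3% lower and a median of -0.01. T cells had medians of 0.22 in T11-Apobec and 1.61 in KPB25Luv over the same genes. Nkg7, a granule membrane protein, was at 4052 and 2271 CPM in T11-Apobec and 3555 and 2404 CPM in KPB25Luv, ratios of 0.84 and 0.56, the second just under 1.5-fold. Serpinb6b, a protease inhibitor of cytotoxic cells, was at 415 and 97.2 CPM in T11-Apobec and 488 and 163 CPM in KPB25Luv. Serpinb9, the inhibitor of granzyme B, was at 365 and 125 CPM in T11-Apobec, a ratio of 1.55 (1.24 to 1.86), but at 259 and 231 CPM in KPB25Luv, where its interval of -0.51 to 0.86 spans 0. Lamp1, a lysosome membrane protein, was the lower one in T11-Apobec, at 103 and 198 CPM. Against the 7 marker-free cells, Nkg7 was level in KPB25Luv at -0.05 (-0.46 to 0.41), and Gzmb, at 0.98 (-0.25 to 3.05), and Serpinb6b, at 1.40 (-0.19 to 4.78), had intervals that span 0.

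**Figure D2:**
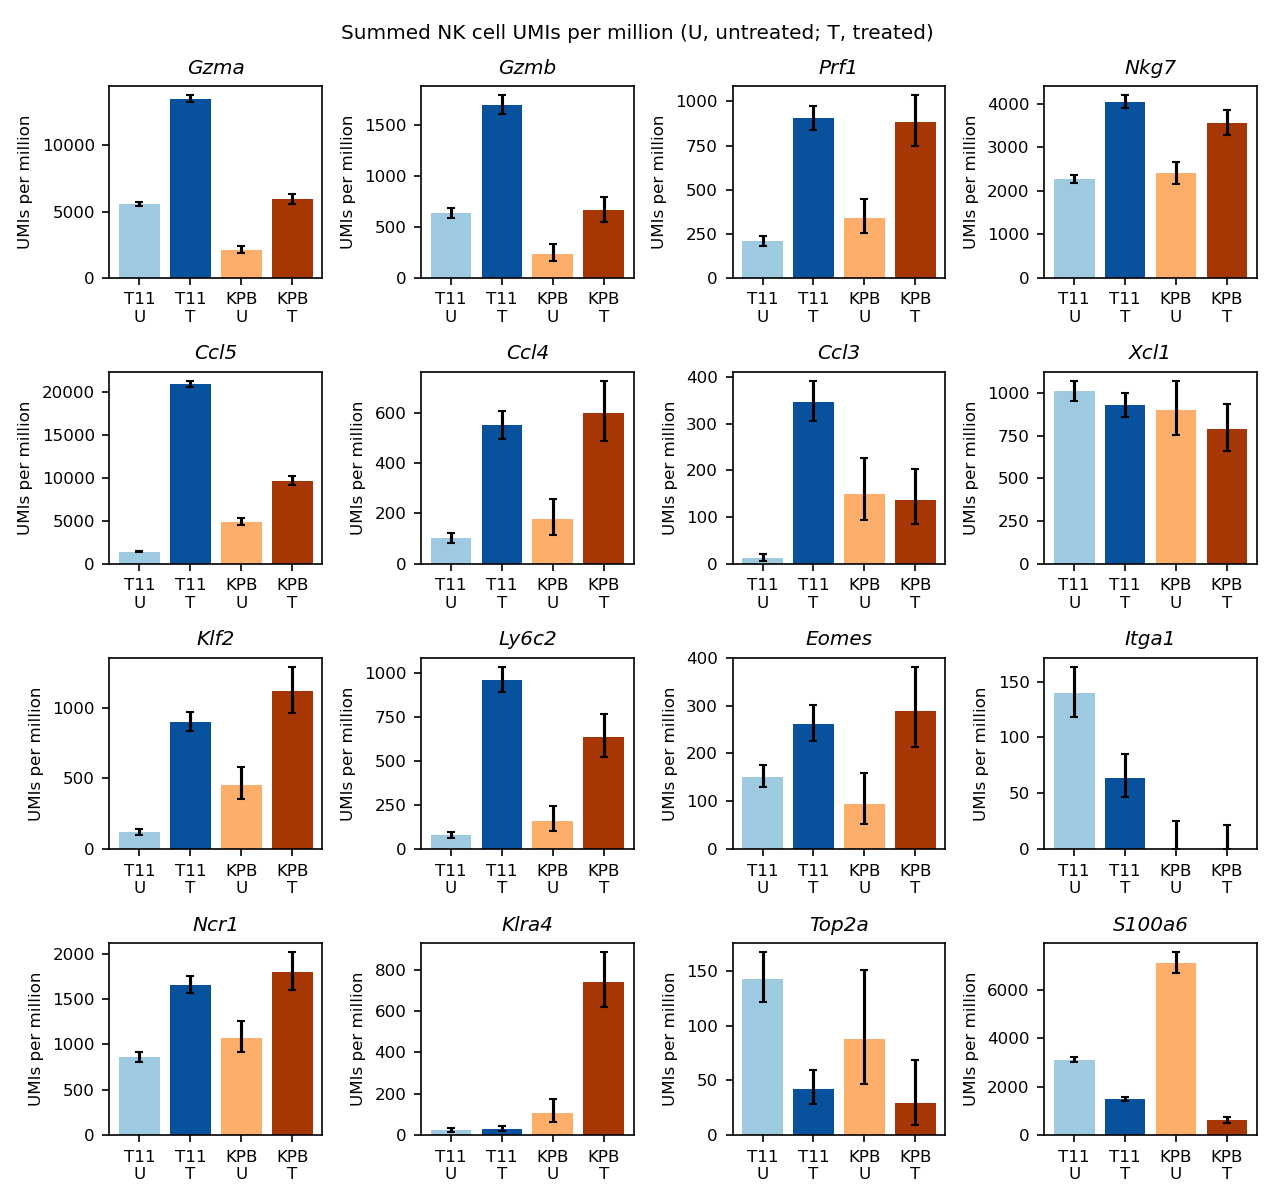
Level of 16 genes in NK cells of each library, in CPM, with each axis from 0. Bars are the level of 1 library (T11, T11-Apobec; KPB, KPB25Luv; U, untreated; T, treated) and lines exact 95% Poisson intervals. Gzma, Gzmb, Prf1, Ccl5, Klf2 and Ly6c2 are higher in the treated bar of each model, whereas Xcl1 is near level, at 931 and 1011 in T11-Apobec.

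Granzymes C, D and F behaved differently, with most of their UMIs in few cells of treated T11-Apobec. Gzmc was at 2548 CPM in treated and 153 CPM in untreated T11-Apobec NK cells, a ratio of 4.05 (3.83 to 4.29), and at 47.1 and 129 CPM in KPB25Luv. Yet 33 of 304 treated and 49 of 360 untreated T11-Apobec cells held a UMI of it, and 5 treated cells held at least 50% of its 1873 UMIs. Cells with any Gzmc UMI were thus not more numerous in the treated library. Cells with at least 5, the split described below, were more numerous there, at 25 (8.22%) against 10 (2.78%). Gzmf had 347 UMIs in 8 cells of treated T11-Apobec, 199 of them in a single cell, and 1 UMI in the untreated library. Gzmd had 43 UMIs against 0, at least 21.3-fold higher against a floor of 3 UMIs in the untreated library, and 0 and 5 UMIs in KPB25Luv.

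A split of treated T11-Apobec NK cells at 5 Gzmc UMIs, chosen after these values were seen, set 25 cells (8.22%) apart from 279 others, and it is given as a description. The 25 cells held more UMIs, with a median of 6230 against 1829. A split at a raw count favours cells with many UMIs, and doublets were kept. They were high in Xcl1, the attractant of cross-presenting dendritic cells, at 2594 CPM against 483 CPM, in Ly6c2, a surface protein of mature NK and memory T cells, at 2896 against 442 CPM, and in Itga1, at 186 against 31.1 CPM. Prf1 was alike, at 899 and 905 CPM. The same cells were low in Gzma, at 3480 against 16216 CPM, in Ccl5, at 488 against 26464 CPM, in Klf2, at 57.8 against 1126 CPM, and in Eomes, a transcription factor of NK cells, at 38.5 against 321 CPM.

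All 25 of them held Tyrobp and Fcer1g, the signalling adaptors of NK receptors, at 2973 and 2562 CPM. Among T cell genes, Trac was at 12.8 CPM, Cd8a at 0 and Cd3g at 38.5 CPM, against 13.8, 5.18 and 55.2 CPM in the others. The beta chain constant regions Trbc1 and Trbc2 were at 392 and 494 CPM, against 628 and 364 CPM. The constant region of a gamma T cell receptor, Tcrg-C4, was higher, at 135 against 20.7 CPM, and Trdc lower, at 19.3 against 193 CPM. In untreated T11-Apobec 10 of 360 NK cells reached 5 Gzmc UMIs, with Gzma at 1475 CPM against 5775 CPM in the rest. KPB25Luv had 1 treated and 2 untreated cells of that kind.

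**Figure D3:**
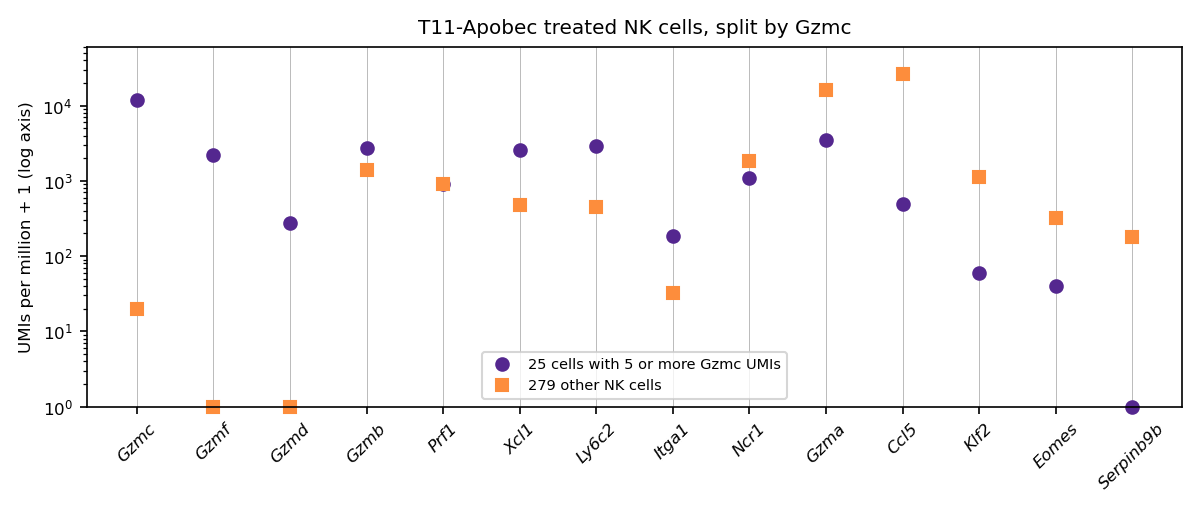
Level of 14 genes in treated T11-Apobec NK cells, as CPM plus 1 on a log axis, in the 25 cells with 5 or more Gzmc UMIs (circles) and the 279 others (squares); points on the lower edge are at 0. Gzmc defines the split. Xcl1 (2594 against 483), Ly6c2 and Itga1 are higher in the 25 cells and Gzma (3480 against 16216), Ccl5, Klf2 and Eomes lower.

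The chemokines Ccl3, Ccl4 and Ccl5 were higher in treated T11-Apobec NK cells. Ccl5, a T cell and monocyte attractant, was at 20960.0 CPM in treated and 1394 CPM in untreated NK cells, a ratio of 3.91 (3.83 to 3.99). In KPB25Luv it was at 9670.0 and 4883 CPM, a ratio of 0.99 (0.86 to 1.11). At equal depth 88.2% of treated and 38.5% of untreated T11-Apobec NK cells held a Ccl5 UMI, against 76.6% and 58.7% in KPB25Luv. Untreated T11-Apobec was the low library. T11-Apobec T cells, which share the 2 libraries, had Ccl5 at 1522 CPM in treated and 3769 CPM in untreated tumours, the opposite order. The difference between the cell types was not tested.

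Ccl3 and Ccl4, the inflammatory macrophage proteins 1 alpha and beta, are related chemokines. Ccl4 was at 551 and 102 CPM in treated and untreated T11-Apobec and at 600.3 and 177 CPM in KPB25Luv, ratios of 2.43 (2.13 to 2.75) and 1.74 (1.13 to 2.45). In treated KPB25Luv it came from 9 cells, 1 of which held 48 of the 102 UMIs, and against the 7 marker-free cells its ratio was 0.85 (-0.39 to 2.91). Ccl3 was at 347 and 11.9 CPM in T11-Apobec, a ratio of 4.81 (4.06 to 5.79), but at 135 and 149 CPM in KPB25Luv, or 135 and 298 CPM with the marker-free cells. The list of chemokines and cytokines had 5 of 8 compared genes higher and 0 lower in T11-Apobec, with a median of 0.84, and 2 of 5 higher with a median of 0.03 in KPB25Luv. Ifng, interferon-gamma, stood at 78.9 and 46.8 CPM in T11-Apobec and at 159 and 81.5 CPM in KPB25Luv, where its 39 UMIs were too few for a comparison.

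Xcl1 was level in sum but not in its spread over cells. It was at 931 and 1011 CPM in treated and untreated T11-Apobec, a ratio of -0.12 (-0.26 to 0.02), and at 789 and 903 CPM in KPB25Luv, -0.20 (-0.55 to 0.16). At equal depth, however, 21.95% (17.3 to 27.2%) of treated and 53.6% (48.2 to 58.9%) of untreated T11-Apobec NK cells held a UMI. In KPB25Luv the shares were 29.7% (18.9 to 42.4%) and 43.5% (28.9 to 58.9%), with intervals that overlapped. Of the 684 treated T11-Apobec UMIs, 404 lay in the 25 cells high in Gzmc.

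**Figure D4:**
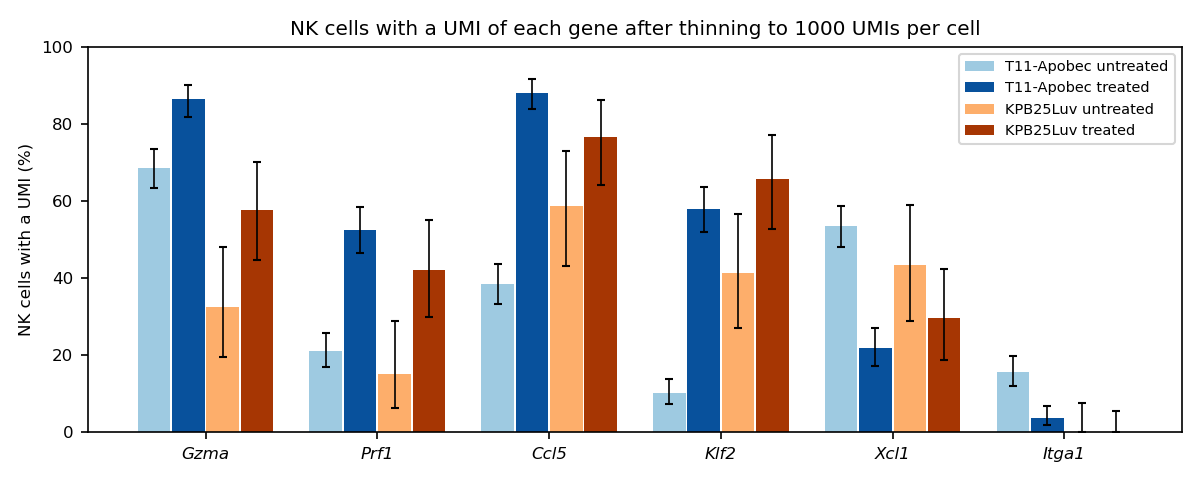
Share of NK cells with at least 1 UMI of each of 6 genes, in percent, after each cell was thinned to 1000 UMIs. Bars are libraries and lines exact 95% binomial intervals. Treated libraries are higher for Gzma, Prf1, Ccl5 and Klf2 (57.8% against 10.3% in T11-Apobec), whereas Xcl1 is lower in treated T11-Apobec (21.95% against 53.6%) and Itga1 is at 0 in both KPB25Luv libraries.

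Genes of mature, circulating NK cells were higher in both treated libraries. Klf2, which controls lymphocyte traffic, was at 899 and 123 CPM in T11-Apobec and 1118 and 455 CPM in KPB25Luv, ratios of 2.87 (2.60 to 3.15) and 1.29 (0.89 to 1.72). It was lowest in untreated T11-Apobec. Ly6c2 was at 962 and 78.9 CPM in T11-Apobec and 636 and 163 CPM in KPB25Luv, but 451 of its 707 treated T11-Apobec UMIs lay in the 25 cells high in Gzmc. S1pr5, the receptor for egress from bone marrow and nodes, was at 32.7 and 0.917 CPM in T11-Apobec (24 UMIs against 1) and at 129 and 20.4 CPM in KPB25Luv (22 against 3, or 22 against 1 with the marker-free cells), too few UMIs for a comparison. Cma1, a mast cell chymase that is also found in NK cells, was at 201 and 8.25 CPM in T11-Apobec, a ratio of 4.54 (3.65 to 5.77).

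The mature NK list had 9 of 10 compared genes higher and 0 lower in T11-Apobec, with a median of 1.79, and 4 of 6 higher and 0 lower in KPB25Luv, with a median of 1.33. T11-Apobec T cells had a median of 0.18 over 9 of those genes, and KPB25Luv T cells 1.72 over 6, so the KPB25Luv difference was not particular to NK cells. In KPB25Luv the list rested on the 39 untreated cells with keratin or S100a8/S100a9 UMIs: with the 7 others alone, its median was -0.06 and Klf2 stood at 1118 CPM in both libraries. Gzma in those 7 cells was at 2534 CPM, a ratio of 1.21 (0.74 to 1.77), and Prf1 at 298 CPM, 1.40 (0.18 to 3.46). Ccl5 was then level, at 0.08 (-0.18 to 0.37). T cell medians for the transcription factor, cytokine receptor and homing lists below were -0.03, 0.14 and 0.64 in T11-Apobec. In KPB25Luv T cells they were 2.09, 2.11 and 2.24.

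Most transcription factors of the lineage that could be compared were higher in the treated libraries, though in KPB25Luv this rested on the marker-bearing cells. Eomes was at 261 and 151 CPM in T11-Apobec and 288 and 95.1 CPM in KPB25Luv, ratios of 0.79 (0.48 to 1.10) and 1.56 (0.72 to 2.57). Irf8, needed for NK cell responses to virus, was at 882 and 309 CPM and at 742 and 455 CPM. Tbx21, the gene of T-bet, was at 66.7 and 27.5 CPM in T11-Apobec, a ratio of 1.27 (0.59 to 1.98). The list had 10 of 13 compared genes higher and 1 lower in T11-Apobec, median 0.79, and 4 of 5 higher in KPB25Luv, median 0.70. Against the 7 marker-free cells the KPB25Luv median was 0.06 over 4 genes, Eomes was at 288 and 224 CPM, a ratio of 0.16 (-1.26 to 2.69), and Irf8 at 0.62 (-0.43 to 2.20). Tox, which acts early in NK cell development, was the lower one, at 19.05 and 36.7 CPM.

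Several receptors were also higher in the treated libraries. The activating receptors and adaptors had 9 of 19 compared genes higher in T11-Apobec and 8 of 12 in KPB25Luv, 0 lower in either, with medians of 0.57 and 0.78. These counts include the 3 genes of the rule, and without them 7 of 16 and 5 of 9 were higher, with medians of 0.56 and 0.82. With the 7 marker-free untreated KPB25Luv cells, 1 of 6 was higher and the median was 0.33. Klrc1, the inhibitory receptor NKG2A, was at 429 and 149 CPM in T11-Apobec and 383 and 204 CPM in KPB25Luv, ratios of 1.52 (1.24 to 1.80) and 0.90 (0.26 to 1.58). Its partner Klrd1, CD94, was at 1252 and 852 CPM and at 1036 and 509 CPM. Klrc2, the activating NKG2C, was at 234 and 75.2 CPM in T11-Apobec, 1.63 (1.25 to 2.04), and at 241 and 177 CPM in KPB25Luv. Against the 7 marker-free cells the KPB25Luv ratios were -0.09 (-1.26 to 1.71) for Klrc1, 0.41 (-0.44 to 1.56) for Klrd1 and -0.09 (-1.54 to 2.45) for Klrc2, all with intervals that span 0. Inhibitory receptors had 2 of 4 compared genes higher in T11-Apobec, median 0.71, and 1 of 3 in KPB25Luv, median 0.04.

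Of the antibodies' targets, Pdcd1 (PD1) had 30 UMIs in 8 treated T11-Apobec NK cells and 1 UMI in the untreated library, and 0 and 2 UMIs in KPB25Luv. Ctla4 had 1, 2, 0 and 1 UMIs in treated and untreated T11-Apobec and KPB25Luv. A Pdcd1 UMI was thus found in few of these NK cells. In treated KPB25Luv 0 of 64 cells held one, and a floor of 3 counts allows up to 4.69% of cells with a UMI, which is no limit on cells that express the gene. Lag3, another checkpoint receptor, had 23 and 9 UMIs in T11-Apobec.

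Cytokine receptors had 6 of 9 compared genes higher and 0 lower in T11-Apobec, median 0.80, and 2 of 4 higher in KPB25Luv, median 0.81. Il2rb, the receptor chain for IL-2 and IL-15 that sustains NK cells, was at 830.0 and 516 CPM and at 1307 and 529.8 CPM, ratios of 0.68 (0.52 to 0.85) and 1.30 (0.92 to 1.69). Ifngr1, the interferon-gamma receptor, was at 630.0 and 229 CPM in T11-Apobec, 1.46 (1.23 to 1.69), and at 918 and 734 CPM in KPB25Luv. Il18rap, a chain of the IL-18 receptor, was at 118 and 37.6 CPM in T11-Apobec, 1.65 (1.10 to 2.23). Against the 7 marker-free cells the KPB25Luv ratios were 1.05 (0.13 to 2.36) for Il2rb and 0.54 (-0.39 to 1.86) for Ifngr1. Over the alternatives the KPB25Luv list median ran from 0.24 to 1.76.

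Adhesion genes were mixed between integrins. The homing and adhesion list had 10 of 14 compared genes higher and 1 lower in T11-Apobec, median 1.21, and 4 of 5 higher in KPB25Luv, median 1.18. Itgb2, the shared chain of the leukocyte integrins, was at 246 and 66.9 CPM in T11-Apobec, 1.87 (1.48 to 2.29), and at 353 and 204 CPM in KPB25Luv, where it was at 373 CPM in the marker-free cells. The lower one was Itga1, at 63.9 and 139 CPM in T11-Apobec, -1.11 (-1.63 to -0.64). At equal depth 3.83% (1.93 to 6.75%) of treated and 15.7% (12.0 to 19.9%) of untreated T11-Apobec NK cells held an Itga1 UMI, and 0 UMIs of it were found in either KPB25Luv library.

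The residency list did not lean one way, with 2 of 9 compared genes higher and 2 lower in T11-Apobec and a median of 0.00. In KPB25Luv 1 of 3 was higher and 1 lower, at 0.02. Inpp4b, a lipid phosphatase, was lower with Itga1, at 34.0 and 82.5 CPM, whereas Cxcr6, a receptor of liver-resident lymphocytes, was higher, at 128 and 45.9 CPM. Among untreated T11-Apobec cells split after the fact into 55 with and 296 without an Itga1 UMI in 1000, Gzma averaged 7.04 and 7.00 UMIs per cell at that depth. Prf1 averaged 0.164 and 0.291 UMIs. Unthinned, 31.9% of untreated cells held Itga1, so the cells without it in 1000 UMIs include some that carry it. Inpp4b is outside the rule for named genes and was chosen after its value was seen.

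NK cells in cycle were fewer in the treated T11-Apobec tumour. At equal depth, 4 of 287 treated and 28 of 351 untreated NK cells held at least 2 UMIs of 9 cycling genes, 1.39% (0.381 to 3.53%) and 7.98% (5.37 to 11.3%). Unthinned the shares were 2.30% and 15.3%. T cells of the same libraries were at 10.3% and 11.7% at equal depth. In KPB25Luv 1 of 64 treated and 2 of 46 untreated NK cells cycled, a difference that was not detectable at this depth. Unthinned they were 2 of 64, 3.13% (0.381 to 10.8%), and 13 of 46, 28.3% (15.99 to 43.5%), with intervals that did not overlap, beside NK cell medians of 2216.5 and 2693.5 UMIs. KPB25Luv T cells ran the same way, at 13.8% of treated and 24.7% of untreated cells at equal depth and 22.2% and 59.4% unthinned.

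The proliferation list had 0 of 21 compared genes higher and 16 lower in T11-Apobec, with a median of -1.22, against 0.17 in T11-Apobec T cells over the same number of genes. Top2a, the topoisomerase of dividing cells, was at 42.2 and 143 CPM, -1.74 (-2.37 to -1.20), and Birc5, survivin, at 29.9 and 136 CPM, -2.15 (-2.90 to -1.53). With cycling NK cells left out, the list's median was -0.11. The 9 genes that define those cells all belong to the list, so part of that shift was set by the choice of cells. In KPB25Luv 4 genes could be compared, 3 of them higher, with a median of 0.81; Tuba1b, an alpha-tubulin, was at 465 and 231 CPM there and at 288 and 719 CPM in T11-Apobec. That KPB25Luv median changed sign under several alternatives. KPB25Luv T cells had a median of 0.97 over the same 4 genes.

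By the fixed ranking, the 10 highest genes of treated over untreated T11-Apobec NK cells included Ccl3, Ccl5, Gzmc, Cma1, Ly6c2, Rasgrp2, Klf2, Serpinb9b and Ccl4. Rasgrp2, an activator of the adhesion switch Rap1, was at 93.9 and 5.50 CPM, a ratio of 3.99 (2.90 to 5.59), and at 153 and 27.2 CPM in KPB25Luv, or 26 UMIs against 0 with the marker-free cells. Serpinb9b, a granzyme inhibitor, was at 139 and 16.5 CPM, 3.04 (2.34 to 3.88). Of its 102 treated UMIs, 0 were in the 25 cells high in Gzmc.

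The 10 lowest were Pacsin1, Tk1, Osbpl1a, Birc5, Pclaf, Cdca8, Spc24, Ccnb2, Hmgb3 and Top2a. Pacsin1, a membrane-bending protein of endocytosis, had 67 UMIs in 50 untreated cells and 0 in 304 treated ones, at least 15.1-fold lower against a floor of 3 UMIs. Over all treated cells Pacsin1 was at 12.5 CPM and over all untreated cells at 1.85 CPM, the opposite order. Most of the other 9 serve division: Tk1 and Pclaf act in DNA synthesis, and Cdca8, Spc24 and Ccnb2 in mitosis. Osbpl1a, an oxysterol-binding protein, was at 8.16 and 55.0 CPM.

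S100a6 and Lgals3 were lower in both treated libraries, beside the markers of other cells, but not every gene of their families was. In T11-Apobec, S100a4 was at 454 and 1235 CPM, S100a6 at 1471 and 3103 CPM, and Lgals3, galectin 3, at 774 and 1633 CPM. In KPB25Luv, S100a6 was at 629.8 and 7097 CPM and Lgals3 at 412 and 1256 CPM. In T11-Apobec, S100a11 (-0.45) and Lgals1 (-0.55) did not pass 1.5-fold, and S100a10 was at 1395 and 1254 CPM, a ratio of 0.15 (0.04 to 0.27). The Ifitm, Ly6 and S100 list had 2 higher and 4 lower of 12 in T11-Apobec, median -0.47, and 1 higher and 8 lower of 12 in KPB25Luv, median -1.20 (-0.48 over 7 with the marker-free cells). The untreated cells also held more macrophage, fibroblast and, in KPB25Luv, epithelial and neutrophil marker UMIs, and the part of these in the values was not tested. Without the 39 cells, S100a6 was still at 3353 CPM in untreated KPB25Luv, a ratio of -2.42 (-2.93 to -1.88).

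The 10 highest genes of treated over untreated KPB25Luv NK cells included Klra4, Zfp36l2, Ly6c2, Bin2, Gzma, Ccl4, Pfn1, Hspa8 and Dnaja1. Klra4, the activating receptor Ly49D, was at 742 and 109 CPM, 2.73 (2.02 to 3.62), and at 28.6 and 22.01 CPM in T11-Apobec. Over all kept KPB25Luv cells Klra4 ran the other way, at 12.7 and 64.8 CPM. Zfp36l2, which destabilises transcripts with AU-rich elements, was at 1048 and 272 CPM, 1.93 (1.45 to 2.48). Bin2, of lymphocyte membranes, was at 377 and 81.5 CPM, and Pfn1, profilin of the actin skeleton, at 4279 and 1712 CPM. Ly6c2 rested on the 39 cells as well: without them it was at 636 and 671 CPM. Zfp36l2 and Pfn1 kept ratios of 1.36 (0.24 to 3.13) and 0.91 (0.41 to 1.51) without them, and Hspa8 1.60 (0.97 to 2.40), while Dnaja1 was at 0.78 (-0.27 to 2.36) and Klra4 and Bin2 had 0 UMIs in the 7 cells.

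Heat shock genes were among them in KPB25Luv alone of the 2 rankings. Hspa8 was at 4173 and 1671 CPM and Dnaja1 at 829.9 and 299 CPM, against 1757 and 1514 CPM and 287 and 311 CPM in T11-Apobec. The dissociation stress list had 3 of 4 compared genes higher and 1 lower in KPB25Luv, median 0.97 (0.59 with the marker-free cells), and 0 of 6 higher and 2 lower in T11-Apobec, median -0.18. Early response genes had 5 of 8 higher in KPB25Luv, median 0.74 (0.08 over 7 genes with the marker-free cells), and 3 higher and 4 lower of 16 in T11-Apobec, median 0.15. Over all kept KPB25Luv cells Hspa8 was at 3500 and 1392 CPM, in the same order. The part of tissue dissociation in these values was not tested.

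The 10 lowest KPB25Luv genes were Ifitm2, S100a9, Cd63, S100a8, Lgals3, Lsm4, Fth1, Psma7, Tpi1 and Txn1. Ifitm2, an interferon-induced membrane protein, had 0 UMIs in treated NK cells and 85 in 15 untreated cells, at least 32.7-fold lower against a floor of 3 UMIs. None of those 85 UMIs lay in the 7 cells without keratin or S100a8/S100a9 UMIs. S100a9 had 0 and 68 UMIs, but 60 of the 68 lay in 1 cell, as did 44 of the 50 S100a8 UMIs. Cd63, a tetraspanin of vesicles, had 1 and 92 UMIs, 43 of them in 1 cell, and was at 27.2 and 265 CPM in T11-Apobec. Over all cells of the library Cd63 was at 169 CPM in treated and 1160 CPM in untreated tumours, in the same order. Glycolysis genes, with Tpi1, had 1 of 10 higher and 6 lower, median -0.61, which changed to 0.21 without the 39 cells.

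Both models shared a part of the differences. Of 888 genes compared in both, 57 were past 1.5-fold higher in both treated libraries, 41.6% of the 137 higher in T11-Apobec and 36.5% of the 156 higher in KPB25Luv. A further 38 were lower in both, 40.9% of 93 and 28.8% of 132, and 15 went opposite ways. Of all 888 genes, 137 were higher and 93 lower in T11-Apobec, and 156 higher and 132 lower in KPB25Luv. The 2 comparisons share no library. The overlap was counted over all 46 untreated KPB25Luv NK cells and not recounted without the 39 that held keratin or S100a8/S100a9 UMIs. Without those cells 150 of 475 compared KPB25Luv genes were past 1.5-fold, against 296 of 898. Interferon-gamma response genes had 6 of 11 higher in T11-Apobec, median 0.63, but the median was -0.11 at equal depth. In KPB25Luv 0 of 3 were higher, median -0.25. Type I interferon genes had 1 higher and 2 lower of 6 in T11-Apobec, median 0.21, and 1 was compared in KPB25Luv.

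**Figure D5:**
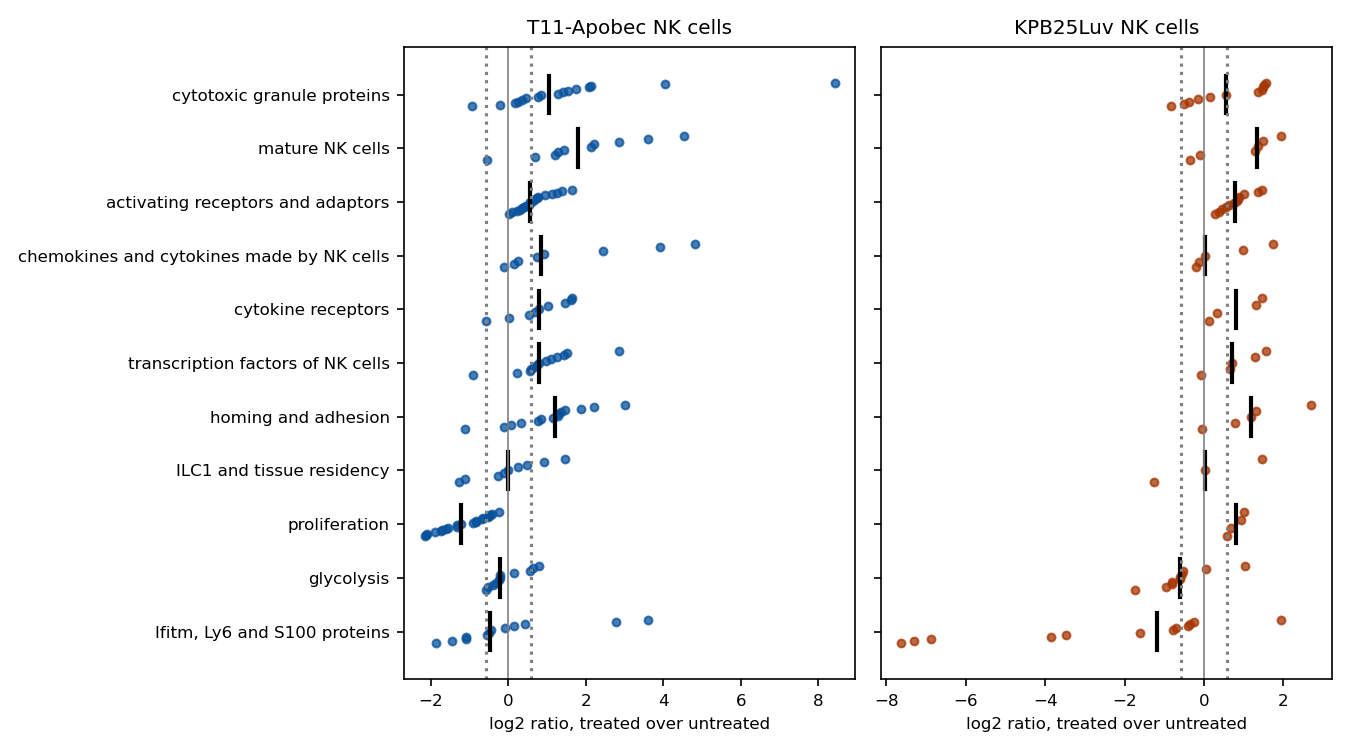
Log2 ratios of treated over untreated NK cells for the compared members of 11 gene lists, T11-Apobec at left and KPB25Luv at right. Each point is a gene, with 0.5 added to its counts, black bars are list medians, and dotted lines mark 1.5-fold. In T11-Apobec, the cytotoxic (1.06) and mature NK (1.79) medians lie above 0 and the proliferation median (-1.22) below. In KPB25Luv fewer genes could be compared and the lowest points are Ifitm and S100 genes.

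The other question is how NK cells of the 2 models differ at the same state, where model, strain and library cannot be told apart and all reads were set against 1 mouse genome. In untreated tumours 3084 genes were compared, 15.4% higher and 18.7% lower in T11-Apobec past 1.5-fold. In treated tumours 2439 were compared, 9.27% higher and 14.8% lower. Untreated cytotoxic granule genes had 2 of 13 higher and 3 lower, median -0.21, and treated ones 5 of 14 higher and 1 lower, median 0.30. Gzma was the higher one in T11-Apobec at both states, at 5583 against 2119 CPM untreated and 13518 against 5944 CPM treated. Prf1 was at 206 against 339.6 CPM untreated and 903 against 883 CPM treated.

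The Ly49 receptors, which read class I molecules and differ between strains in gene content, differed between the models gene by gene. In untreated tumours 3 of 4 compared genes were higher and 0 lower in T11-Apobec, with a median of 2.26, or 1.67 with Klra5 at its bound, and in treated tumours 3 of 5 were higher and 2 lower, with a median of 0.59. That last median turned to -0.16 with Cd3g and Trac also required at 0 and to -0.71 with a minimum of 20 UMIs. Klra3 was at 377 and 229 CPM in treated and untreated T11-Apobec and at 23.5 and 13.6 CPM in KPB25Luv. Klra5 had 61 and 132 UMIs in T11-Apobec and 0 in both KPB25Luv libraries. Klra4 ran the other way, at 28.6 and 22.01 CPM in T11-Apobec and 742 and 109 CPM in KPB25Luv, as did Klra8, with 3 and 1 UMIs against 24 and 3. Klra7 was found in all 4 libraries, at 192, 157, 312 and 109 CPM. These genes are near-identical copies, so reads may have been split among them, and strain alleles may not match the reference.

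Outside the Ly49 family, the same few genes led both rankings. Ms4a4b, a membrane protein of lymphocytes, was at 1825 and 768 CPM in treated and untreated T11-Apobec and at 182 and 81.5 CPM in KPB25Luv. Ly6e, a small surface protein, was at 50.3 and 53.2 CPM in T11-Apobec and at 1283 and 1521 CPM in KPB25Luv. The difference between models was larger than that between treatments for both of these. Over all kept cells Ly6e was at 493 and 125 CPM in T11-Apobec and 1275 and 1160 CPM in KPB25Luv. Thy1, the lymphocyte antigen CD90, led in untreated T11-Apobec at 356 CPM against 20.4 CPM, and Itga1 followed with 152 UMIs against 0, at least 6.84-fold higher against a floor of 3 UMIs in KPB25Luv.

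The remaining ranked genes were Tpm3-rs7, Plac8 and Gzmc, higher in treated T11-Apobec, and Gdpd3 and Cd7, higher in treated KPB25Luv. Tpm3-rs7, a copy related to a tropomyosin gene, had 177 UMIs against 0, at least 13.6-fold higher against a floor of 3 UMIs in KPB25Luv. Plac8, found in many leukocytes, was at 291 against 23.5 CPM, and at 139 against 211 CPM in untreated tumours. Cd7, an antigen of NK and T cells, was at 399 and 525 CPM in T11-Apobec and at 1412 and 835 CPM in KPB25Luv. Gdpd3, a lipid phosphodiesterase, was at 9.52 against 335 CPM in treated tumours. S100a8, S100a9 and Eno1 were the other genes higher in untreated KPB25Luv, beside the neutrophil and epithelial marker UMIs given above.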

How the data were processed

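Gene by cell matrices of UMI counts were deposited by the authors, 1 for each of 4 libraries, as whole-number counts with no normalization. Per the file headers they were made with Cell Ranger 3.0.2, and the submitters' processing notes name the mm10 build. Samples were grouped by the labels' tumour line and treatment, with 1 library in each group. The 4 files hold 31054 features and between 30369476 and 98475778 UMIs.

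Cells, NK cells and T cells were taken by the UMI rules given above, with Python 3.11.15, numpy 2.4.6, scipy 1.17.1 and pandas 2.3.3. Counts were summed over the NK cells of a library and given per 1000000 UMIs (CPM) with exact Poisson 95% intervals, and shares have exact Clopper-Pearson 95% intervals, except that a count of 0 is given the limit that a floor of 3 counts allows. Log2 ratios add 0.5 to each count and carry an exact conditional interval, checked on simulated counts. A gene was compared with at least 50 UMIs in both libraries together, and 1.5-fold was the threshold of counts. All intervals cover counting error only, since cells of 1 library are no replicates. Equal depth means 1000 UMIs drawn from each cell without replacement. Doublets were kept in the main values, and removal by Scrublet score (scanpy 1.11.5) was an alternative.

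Named genes are the 10 highest and 10 lowest in each treatment comparison (5 and 5 between models) by the interval end nearest to 0, among genes with 50 UMIs in the higher library, a UMI in 5% of its NK cells and an NK level at least 0.5 times that over all kept cells. Left out of the ranking were genes of mitochondria, ribosomes, haemoglobin, antigen receptors, histones, Xist, the Y chromosome and models without a name. Genes of the rule and up to 4 members of each of 19 lists are named besides; some of these genes are not reported here. The NK rule, the lists (292 genes, 2 not found in the files) and the tests were chosen with earlier results of these data known. Alternatives changed the rule's minimum, the T cell genes at 0, the cell filters, the depth, the UMI minimum, the fold, doublets and cycling cells.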

Additional observations from a re-analysis of the deposited data

Results flagged for a closer look

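Of 888 genes compared in both models, 15 were past 1.5-fold in opposite directions. Of these 15, 5 are members of the lists with intervals that exclude 0 in each model. Spp1, Gimap4, Snrpg, Snrpf, Crip1 and Ighm, outside the lists, met the same rule. How many list members were compared in both models was not counted. Tuba1b, an alpha-tubulin, had a log2 ratio of treated over untreated of -1.32 in T11-Apobec and 0.998 in KPB25Luv NK cells. Hmgb2, a chromatin protein of dividing cells, was at -0.67 and 0.67, and Hsp90aa1, a chaperone, at -0.68 and 0.63. Dusp1, an early response phosphatase, was at -1.18 and 0.84, and Eno1, an enzyme of glycolysis, ran the other way at 0.79 and -0.81. The difference between the models was not tested, since each rests on 1 library per group. Without the NK cells that held keratin or S100a8/S100a9 UMIs, the KPB25Luv ratios were 0.19 (-0.96 to 1.98) for Tuba1b, -0.15 (-1.17 to 1.30) for Hmgb2 and 0.01 (-1.26 to 2.09) for Eno1. Those of Hsp90aa1 and Dusp1 without such cells are not given.

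Cells outside the comparisons carried NK receptor transcripts together with Cd3d or Cd3e. They were 6.70% of kept cells in treated and 0.407% in untreated T11-Apobec, and the difference was not tested. Their Ncr1 level was 109.9 CPM and 543 CPM, against 1657 and 863 CPM in the NK cells. Gzma was at 758 and 1433 CPM and Trac, the T cell receptor alpha chain, at 599.7 and 173 CPM.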

How the results depend on the processing

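No paired analysis was possible because each group is 1 library and the labels give no replicate numbers. Of 1929 values recomputed for 114 results, 1662 stayed within the main interval, or for gene counts within 1.5 times the main count. Another 256 moved outside these limits. The last 11 did so and changed sign from a main value past 1.5-fold. Sign changes of smaller main values are not among the 11. The T11-Apobec glycolysis median of -0.22, for example, reached 0.13. The log2 ratio of the NK share in T11-Apobec, 0.51, was 0.75 at equal depth and -0.95 over cells with a Ptprc UMI. In KPB25Luv, 0.77 was 0.13 with 1 rule UMI and 0.073 over cells with Ptprc, and between untreated models 2.30 was 1.69 and 3.34. Cycling NK cells were 15.3% of untreated T11-Apobec and 28.3% of untreated KPB25Luv cells without thinning, and 5.13% of the former with 3 cycling UMIs. The 1192 T11-Apobec genes past the fold were 328 at equal depth, 2411 and 614 with minima of 20 and 100 UMIs, 425 at 2-fold and 708 without cycling NK cells. The 296 KPB25Luv genes were, in the same order, 46, 915, 116, 111 and 179, with 1542 at 1 rule UMI and 150 without the cells with keratin or S100a8/S100a9 UMIs, an alternative chosen after seeing the data. Between untreated models 1053 genes were 2254 at 1 rule UMI, 202 at equal depth, 1664 without those cells, 2485 and 436 at the 2 minima and 407 at 2-fold. Between treated models 588 genes were 1020 at 1 rule UMI, 169 at equal depth, 1775 and 221 at the 2 minima and 172 at 2-fold. At equal depth the T11-Apobec medians of immature NK genes and interferon-gamma genes, 0.61 and 0.63, were -0.21 and -0.11. The KPB25Luv proliferation median, 0.81, was -1.54 at 1 rule UMI, -0.20 without Scrublet doublets, -0.063 without cycling cells and -0.0035 without the cell with most UMIs of each gene, also chosen after seeing the data. Without the 39 cells, the KPB25Luv medians were -0.063 for mature NK genes and 0.21 for glycolysis, and Ly6c2 was at -0.15. The Ly49 median between treated models, 0.59, was -0.16 with Cd3g and Trac also at 0 and -0.71 at a minimum of 20 UMIs. The cause of these shifts was not tested.

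The number of NK cells limits KPB25Luv, where 64 and 46 cells left 898 genes to compare, against 4150 in T11-Apobec. Each group is 1 library, so differences between animals, strains, dissociation runs and sequencing cannot be told apart from treatment or model.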

Other observations

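Lists whose treatment counts are not given above follow here. Immature NK genes had 5 of 9 compared members higher and 0 lower in T11-Apobec, with a median log2 ratio of 0.61 (-0.21 at equal depth), and 4 of 9 higher and 0 lower in KPB25Luv, median 0.42. Cd27, a receptor of less mature NK cells, was at 162 and 79.8 CPM in treated and untreated T11-Apobec and at 271 and 74.7 CPM in KPB25Luv, or 271 and 149 CPM without the cells with keratin or S100a8/S100a9 UMIs. Survival and apoptosis genes had 3 of 10 higher and 0 lower in T11-Apobec, median 0.25, and 0 of 2 past the fold in KPB25Luv, median -0.36. Glycolysis genes had 2 of 11 higher and 1 lower in T11-Apobec, median -0.22. Ly49 receptors had 2 of 4 higher in T11-Apobec, median 0.50, and 2 of 2 in KPB25Luv, median 2.11.

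Transcripts of the gamma and delta T cell receptor chains were found in NK cells of all 4 libraries, without Cd3d or Cd3e by the rule. Trdc, the delta constant region, had 115 and 184 UMIs in treated and untreated T11-Apobec NK cells and 26 and 11 in KPB25Luv, in 28.0%, 35%, 34.4% and 21.7% of cells. Of 9 markers of group 2 and 3 innate lymphoid cells, 7 were at 0 in 3 libraries and 8 in treated KPB25Luv, and Il13, Il5, Il22, Il17a and Il23r were at 0 in each. The list summed to 99.3 and 58.7 CPM in treated and untreated T11-Apobec NK cells and 129 and 95.1 CPM in KPB25Luv, against 67.0, 25.6, 134 and 201 CPM over all kept cells. Gata3, a transcription factor of these cells that NK cells also express, held most of it, with 64, 63, 22 and 8 UMIs. Mast cell markers were also at or near 0, at 1.36 and 2.75 CPM in T11-Apobec and 0 in both KPB25Luv libraries, while Cma1, a chymase, was at 201 and 8.25 CPM in treated and untreated T11-Apobec NK cells.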
